A study of Sus scrofa with 15 samples.

Results

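The genes followed here are those of spermatogonia, the dividing germ cells of the testis, and of the machinery that controls RNA in germ cells. Of a list of 10 genes, rows were chosen from the table of 30476 genes by gene symbol, whatever their values, and 8 were found (KIT, ZBTB16, GFRA1, UCHL1, DDX4, MAEL, TDRD1 and DND1). All 8 had enough reads to be tested. The list itself, and the further gene lists below, were chosen with earlier results of these data known. Counts set beside the share of all genes are therefore descriptive only. NANOS2 was listed by its Ensembl identifier alone and had too few reads, and DAZL was not analysed here. The RNA came from testes collected on postnatal day 21 from 15 male piglets, 3 to a diet, and each piglet gave 1 library. All piglets were born to Dutch Landrace Duroc sows, came from many litters and suckled for the first 2 days. The 5 diets that followed were sow milk (Sow), a formula based on cow's milk (Milk), a soy formula (Soy), and the Milk formula with either 17-beta-estradiol at 2 mg/kg/d (M + E2) or genistein, a soy isoflavone, at 84 mg/L of diet (M + G). The comparisons ask whether soy formula or genistein moved the testis in the way an added estrogen did, with Milk as the base of both supplemented diets.

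In the newborn testis the germ cells are gonocytes, which settle on the basement membrane of the cords and become spermatogonia. Undifferentiated spermatogonia are held by GDNF from Sertoli cells, which binds GFRA1 and the kinase RET, while KIT, the receptor of stem cell factor (KITLG), marks spermatogonia that have begun to differentiate. A further set of germ cell proteins binds RNA, silences transposons through piRNAs or controls translation. KIT is also made by Leydig cells and mast cells, and UCHL1 by neurons, so neither is restricted to germ cells. In RNA from whole testis, fewer cells of a type and less RNA per cell cannot be told apart.

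Between 6097552 and 9488579 reads were counted on genes in each library (median 8198038). Levels are read counts scaled to library size (CPM) after TMM normalization. As an approximate upper limit for a count of 0, 3 reads were taken, for counting error only, which corresponded to 0.313 to 0.443 CPM. Sow 2, which the study excluded, had a normalization factor of 0.762 against 0.918 to 1.14 in the other libraries. It is shown in every level and was left out of the tests, so that Sow has 2 libraries there. The column names give no number to 1 Sow and 1 Soy library. The p-values measure the spread between these piglets.

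None of the 8 genes passed the test in any of the 8 comparisons, by edgeR's quasi-likelihood test at an adjusted p of 0.05 and a change of 2-fold. Of all 15634 genes tested, the share called was 5.0% for M + E2 against Sow, 0.0576% for M + G against Sow, 0.0128% for Soy against Sow and 0.0192% for Milk against Sow. With Milk as the base it was 0.00% for each of M + E2, M + G and Soy, and for Soy against M + E2 it was 0.147%. In the test over all 5 diets together it was 0.0640%, again with none of the 8 genes. By edgeR's exact test 1 gene was called in M + E2 against Milk (KIT) and 1 in M + G against Sow (MAEL), and by DESeq2's Wald test 1 in M + E2 against Milk (KIT). Of all genes, the exact test called 0.636% in M + E2 against Milk and 6.48% in M + G against Sow, and the Wald test 0.780% in M + E2 against Milk. A count of 0 of 8 thus lies near the background in every comparison. The share for M + E2 against Sow itself depended on single libraries. It was 0.0184% without the unnumbered Sow library, 0.0123% without Sow 3, at most 0.0386% without any one M + E2 library, 0.0642% without Soy 2, 0.288%, 1.94% and 0.244% without M + G 1, 2 and 3, and 9.81%, 8.49% and 7.77% without Milk 3, the unnumbered Soy library and Soy 3. With all 3 Sow libraries it was 18.1%. Before adjustment, 3 of the genes had p below 0.05 and were higher in M + E2 than in Milk (KIT, DND1 and TDRD1), against 7.23% of all genes, and 1 higher in Soy than in Milk (KIT), against 1.36%. Against Sow there was 1 higher in M + E2 (KIT; all genes 14.6%), 2 lower in M + G (MAEL and DDX4; 13.7%), 1 lower in Soy (MAEL; 7.46%) and 1 lower in Milk (MAEL; 5.99%). DND1 and TDRD1 were lower in Soy than in M + E2 (4.60%), and no gene reached this level between M + G and Milk. The 4 comparisons with Sow share its libraries, and those with Milk share the Milk libraries.

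**Figure D1:**
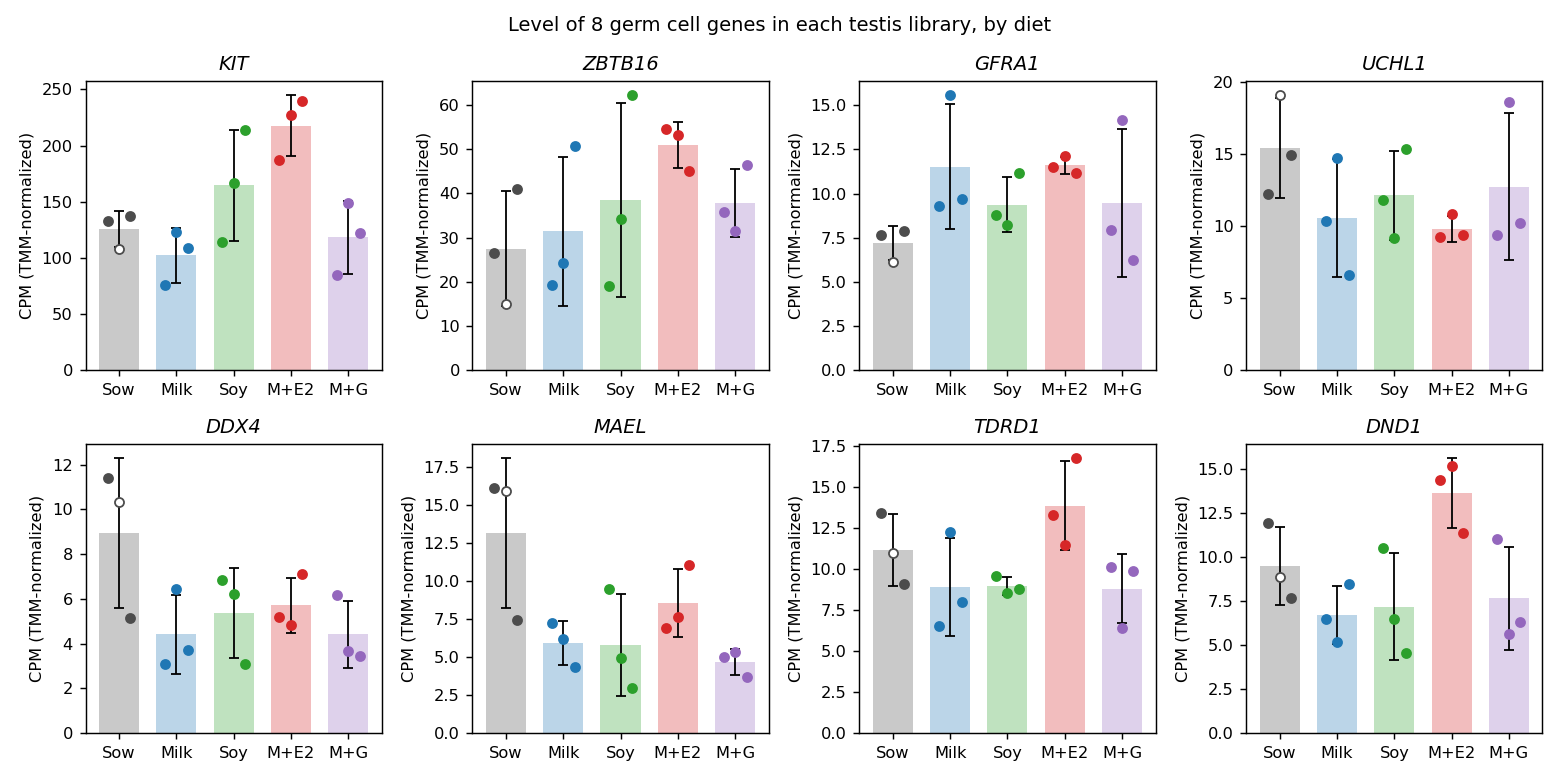
Level of each of the 8 genes in CPM (TMM-normalized) by diet, 1 panel per gene. Points are piglets, the open circle is Sow 2, bars are means and error bars are SD (n = 3); KIT in M + E2, from 187 to 239 CPM, lies above all Milk and Sow libraries.

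KIT (ENSSSCG00000008842, chromosome 8, 41402334 to 41492306 in Sscrofa11.1, position from RefSeq) had its highest mean in M + E2. Its level was 187, 227 and 239 CPM in the M + E2 libraries and 75.6, 123 and 108 CPM in the Milk libraries. The Sow libraries had 133, 108 (Sow 2) and 137 CPM, the Soy libraries 114, 166 and 213 CPM, and the M + G libraries 84.4, 149 and 122 CPM. Every M + E2 library thus lay above every Milk, Sow and M + G library. This held for 9.69% of all genes relative to Milk and 31.4% relative to Sow, and was not counted relative to M + G. By contrast, Soy spanned the range between Sow and M + E2. The means were 218 ± 27.4 CPM in M + E2, 165 ± 49.6 in Soy, 126 ± 15.9 in Sow, 118 ± 32.2 in M + G and 102 ± 24.4 in Milk (SD, n = 3), and each neighbour in that order overlapped the next. The log2 difference between M + E2 and Milk was 1.07 (SE 0.256, 95% interval 0.515 to 1.62), with an adjusted p of 0.186. Against Sow the difference of M + E2 was 0.62 (SE 0.288), with an adjusted p of 0.147. With all 3 Sow libraries it was 0.79, with an adjusted p of 0.0279 and still under 2-fold. Between Soy and Milk the log2 difference in KIT was 0.72 (SE 0.255), at an unadjusted p of 0.0138 and an adjusted p of 0.999, and without Soy 3 it was 0.49. Over all 5 diets together KIT had the smallest unadjusted p of the 8 genes (0.00754), with an adjusted p of 0.205. The call for M + E2 against Milk depended on the test, since edgeR's exact test (adjusted p = 0.0156) and DESeq2's Wald test (adjusted p = 0.0155) called KIT, as did the quasi-likelihood test without Milk 3 (adjusted p = 0.0286).

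Markers of other cell types that surround or also make KIT were summed beside it. Of 10 Sertoli cell genes 4 were higher in M + E2 than in Milk at an unadjusted p below 0.05, against 7.23% of all genes. For M + E2 and for M + G against Milk, 9 of the 10 had a log2 difference above 0. Their summed level was 3711 to 3897 CPM in M + E2 against 1640 to 3078 in Milk and 2429 to 2832 in Sow. The summed level was 2141 to 3821 CPM in M + G and 1962 to 2694 in Soy. That of 5 Leydig cell genes was 13151 to 14073 CPM in M + E2 against 10458 to 22320 in Milk and 19346 to 20046 in Sow. The sum of 3 mast cell genes was 10.7 to 17.1 CPM in M + E2, 6.71 to 21.3 in Milk and 5.98 to 9.67 in Sow, and of these HDC had 0 reads in 2 libraries. The part of these cells in the KIT levels was not tested.

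**Figure D2:**
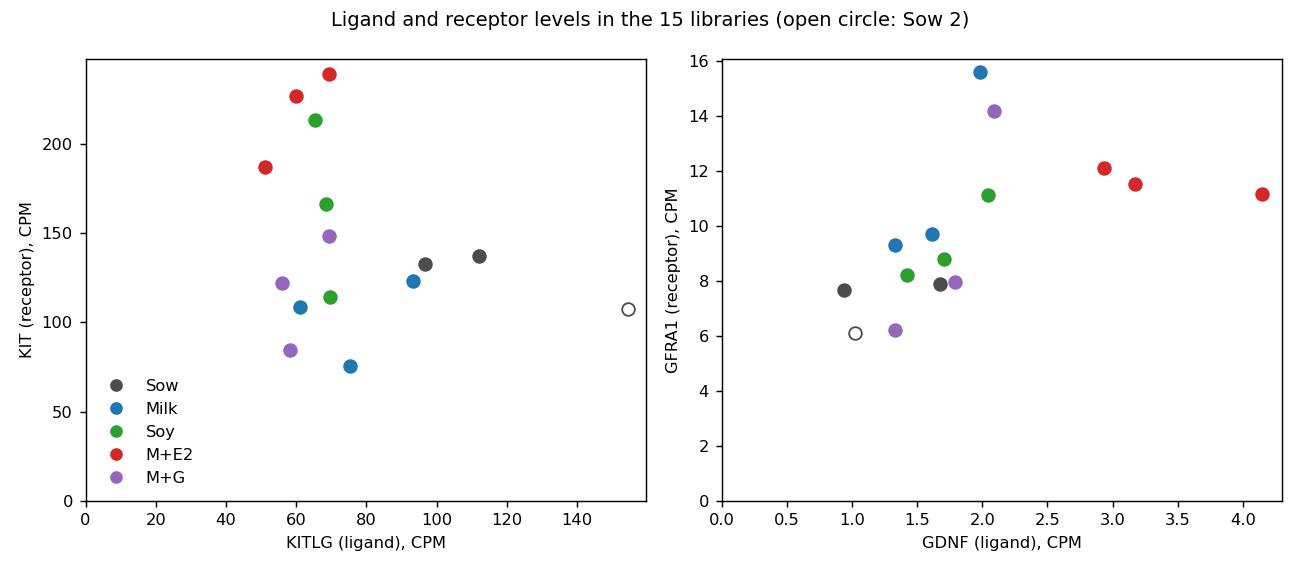
Ligand level (x) against receptor level (y) in CPM (TMM-normalized), for KITLG and KIT on the left and GDNF and GFRA1 on the right. Colours are diets. Points are piglets and the open circle is Sow 2; KITLG lies between 51.2 and 69.3 CPM in M + E2 and between 96.7 and 155 CPM in Sow, and GDNF lies highest in M + E2.

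KITLG (ENSSSCG00000035495), the ligand of KIT made by Sertoli cells, had its highest mean in Sow and its lowest in M + E2. It was at 96.7, 155 (Sow 2) and 112 CPM in Sow and at 51.2, 59.8 and 69.3 CPM in M + E2. Milk had 75.3, 93.3 and 61.1 CPM, Soy 69.6, 68.4 and 65.4 CPM, and M + G 58.2, 69.4 and 55.8 CPM. All Sow libraries lay above all libraries of the formula diets. Taken singly, M + E2, M + G, Soy and Milk lay wholly below Sow in 27.4%, 25.1%, 17.2% and 13.8% of all genes. The log2 difference of M + E2 from Sow was −0.86 (SE 0.188), with an adjusted p of 0.0374 but a change under 2-fold, so KITLG was not called. With all 3 Sow libraries it was −1.01 (adjusted p = 0.00679), which was called.

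GFRA1 (ENSSSCG00000010655, chromosome 14, 126273558 to 126499957), the GDNF receptor of undifferentiated spermatogonia, was lowest in Sow. It was at 7.65, 6.12 (Sow 2) and 7.89 CPM in Sow and at 11.5, 12.1 and 11.2 CPM in M + E2. Milk had 9.30, 15.6 and 9.69 CPM, Soy 8.79, 8.21 and 11 CPM, and M + G 7.94, 14.2 and 6.22 CPM. M + E2, Milk and Soy lay wholly above Sow, as did 31.4%, 13.8% and 16.6% of all genes in the same comparisons, and M + G overlapped Sow. The log2 difference of M + E2 from Sow was 0.51 (SE 0.328, 95% interval −0.197 to 1.22, adjusted p = 0.285), and that of Milk from Sow was 0.53 (adjusted p = 0.496), which was 0.26 without Milk 2. M + E2 and Milk differed by −0.01 (95% interval −0.63 to 0.60).

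Of the partners of GFRA1, the ligand GDNF (ENSSSCG00000038727) rose in M + E2 relative to Sow. Its read counts were 22, 23 and 39 in M + E2 and 7, 7 (Sow 2) and 14 in Sow. Milk had 9, 16 and 13 reads, Soy 13, 13 and 18, and M + G 14, 20 and 12. Each M + E2 library lay above all others, although all counts were low. Taken singly, 31.4% of all genes lay so relative to Sow, 9.69% relative to Milk and 12.8% relative to Soy. The share relative to M + G was not counted. The log2 difference from Sow was 1.31 (SE 0.36, adjusted p = 0.0465), and that from Milk was 1.03 (adjusted p = 0.193). The call was lost without either Sow library (adjusted p = 0.291 and 0.164), without any M + E2 library (0.0894 to 0.123) and in the fits without Soy 2, M + G 1, M + G 2 or M + G 3 (0.0546 to 0.0641), and with no filter on low counts (0.0603). RET, the kinase that GFRA1 and GDNF engage, had 13.0, 14.3 and 14.8 CPM in M + E2, 9.26, 7.29 (Sow 2) and 7.65 in Sow, and 6.49, 4.46 and 11.7 in Milk. Its log2 difference of M + E2 from Milk was 0.87 (adjusted p = 0.206).

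ZBTB16 (ENSSSCG00000030095, chromosome 9, 41639536 to 41839254) encodes PLZF, a transcription factor of undifferentiated spermatogonia that is also induced by glucocorticoids in other tissues. It was the most variable of the 8 genes among piglets of 1 diet, with a within-diet SD of 0.611 on the log2 scale against a median of 0.344 over all genes tested. M + E2 had 54.6, 53.2 and 45 CPM, Sow 26.5, 15.0 (Sow 2) and 41.0, and Milk 19.3, 24.3 and 50.7. Soy had 19.2, 34.1 and 62.3 CPM and M + G 35.9, 31.4 and 46.4. M + E2 lay above Sow, as did 31.4% of all genes. It lay within the range of Soy and overlapped Milk and M + G. The log2 difference of M + E2 from Milk was 0.67 (95% interval −0.175 to 1.52, adjusted p = 0.360), and without Milk 3 it was 1.20, which was called (adjusted p = 0.0481). Of 6 genes that respond to glucocorticoids, none was called in any comparison, although SGK1 was lower in M + E2 (25.7 CPM) than in Sow (49.0 CPM without Sow 2), at just under 2-fold (adjusted p = 0.0406). In that comparison 4 of the 6 had a log2 difference below 0, with a median of −0.23. Their summed level was 656 to 719 CPM in M + E2, 615 to 805 in Milk and 646 to 723 in Sow.

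UCHL1 (ENSSSCG00000022945, chromosome 8, 32353766 to 32367288), a ubiquitin hydrolase of gonocytes and spermatogonia, had its lowest mean in M + E2. It was at 9.22, 10.8 and 9.35 CPM in M + E2 and at 12.2, 19.1 (Sow 2) and 14.9 CPM in Sow. Milk had 10.3, 14.7 and 6.58 CPM, Soy 11.8, 9.19 and 15.4, and M + G 9.35, 18.6 and 10.2. M + E2 lay below Sow, as did 28.7% of all genes, and the other diets overlapped both. The log2 difference from Sow was −0.54 (SE 0.349, adjusted p = 0.291). The summed level of 5 neural genes was 26.9 to 33.5 CPM in M + E2 and 28.5 to 38.3 CPM in Sow.

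**Figure D3:**
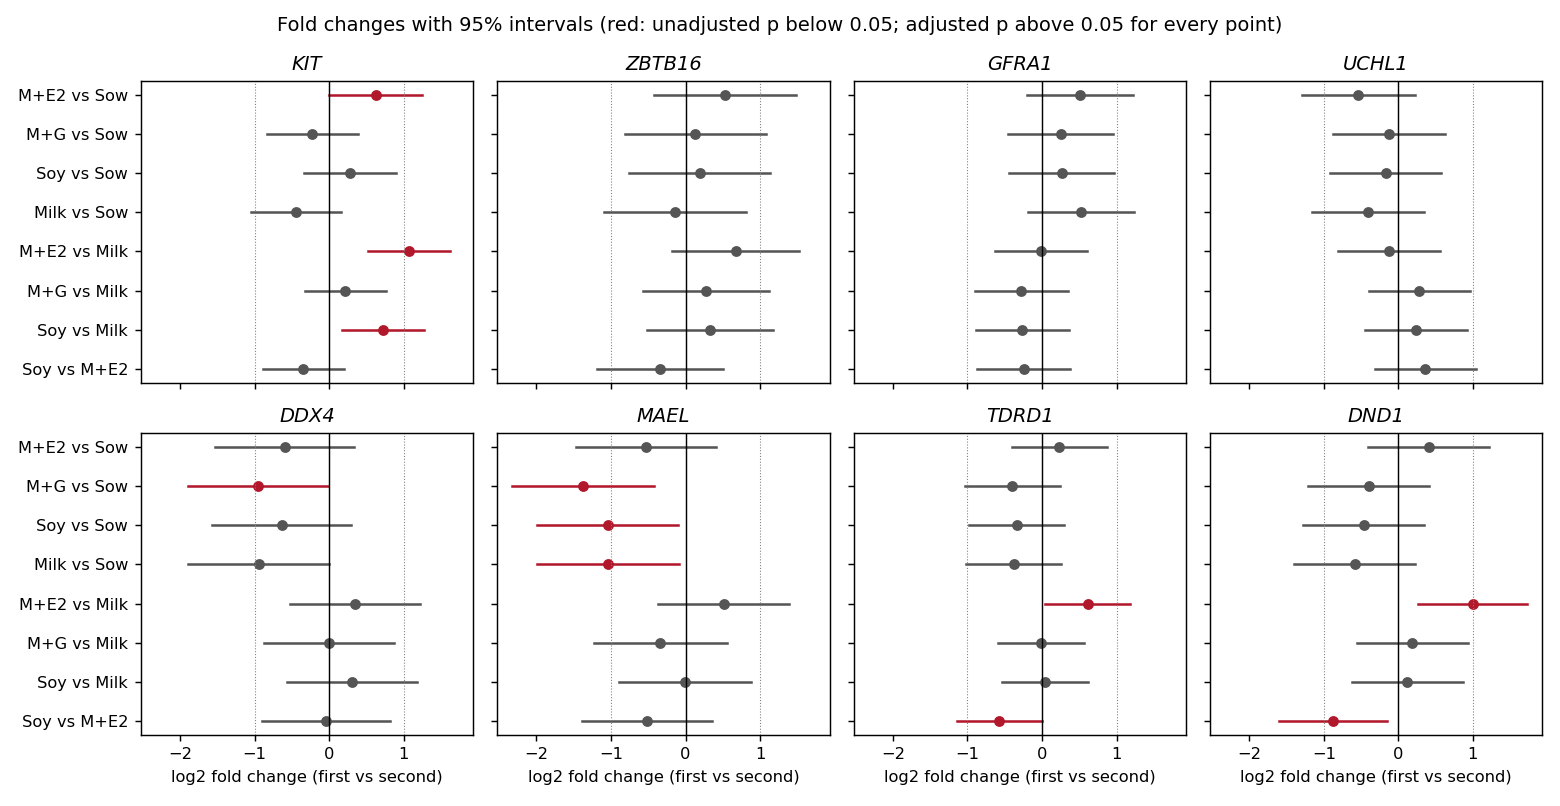
Log2 difference of each of the 8 genes in the 8 comparisons. Points are estimates of edgeR's quasi-likelihood fit without Sow 2, lines are 95% intervals, red marks an unadjusted p below 0.05 and dotted lines mark 2-fold; for KIT, M + E2 against Milk, the interval runs from 0.515 to 1.62.

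MAEL (ENSSSCG00000006316, chromosome 4, 83990266 to 84040465), which acts in piRNA silencing of transposons, had the largest ratio of highest to lowest mean among the 8 tested genes (2.82). Sow had 16.1, 15.9 (Sow 2) and 7.41 CPM, M + G 5.0, 5.32 and 3.66, and Milk 7.23, 6.19 and 4.35. Soy had 9.45, 4.93 and 2.96 CPM and M + E2 6.92, 7.65 and 11. All M + G and Milk libraries lay below all Sow libraries, as did 26.4% and 15.3% of all genes, whereas Soy and M + E2 overlapped Sow. The log2 difference of M + G from Sow was −1.37 (SE 0.442, 95% interval −2.32 to −0.418, adjusted p = 0.138). It was called with all 3 Sow libraries (−1.49, adjusted p = 0.0261), in a fit of these 2 groups alone (−1.33, adjusted p = 0.0391) and by edgeR's exact test (adjusted p = 0.00797). Without the unnumbered Sow library it was −0.68 (adjusted p = 0.621), and without Sow 3 it was −1.84 (adjusted p = 0.346). The differences of Soy and Milk from Sow were −1.05 (adjusted p = 0.322) and −1.04 (adjusted p = 0.397).

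DDX4 (ENSSSCG00000016913, chromosome 16, 34879701 to 34983701), the RNA helicase VASA found in germ cells, was at 11.4, 10.4 (Sow 2) and 5.14 CPM in Sow. Milk had 3.10, 6.44 and 3.73 CPM, M + G 6.15, 3.65 and 3.44, Soy 6.82, 6.24 and 3.07, and M + E2 5.19, 4.84 and 7.12. Sow 3 lay among the formula libraries, so no diet was separate from Sow. The log2 difference of M + G from Sow was −0.95 (SE 0.437, adjusted p = 0.209), and that of M + E2 from Milk was 0.35 (adjusted p = 0.638).

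TDRD1 (ENSSSCG00000021075, chromosome 14, 124526013 to 124575166), a Tudor protein that holds piRNA factors together, had 13.3, 11.5 and 16.8 CPM in M + E2 and 6.49, 12.3 and 7.95 in Milk. Sow had 13.4, 10.9 (Sow 2) and 9.09 CPM, Soy 9.58, 8.54 and 8.76, and M + G 10.1, 6.37 and 9.88. M + E2 lay above Soy, as did 12.8% of all genes, and above M + G, for which no share was counted. It overlapped Milk and Sow. The log2 difference of M + E2 from Milk was 0.61 (SE 0.266, adjusted p = 0.262), and that of Soy from M + E2 was −0.57 (SE 0.265, adjusted p = 0.383).

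DND1 (ENSSSCG00000014374, chromosome 2, 142384526 to 142387407), an RNA-binding protein needed for germ cell survival, had 14.4, 15.2 and 11.4 CPM in M + E2 and 6.49, 5.20 and 8.45 in Milk. Soy had 10.5, 6.46 and 4.55 CPM, M + G 11, 5.63 and 6.33, and Sow 11.9, 8.89 (Sow 2) and 7.65. M + E2 lay above Milk, Soy (as in 12.8% of all genes) and M + G (share not counted), and overlapped Sow. The log2 difference of M + E2 from Milk was 1.00 (SE 0.341, 95% interval 0.262 to 1.73, adjusted p = 0.208), and that of Soy from M + E2 was −0.88 (SE 0.338, adjusted p = 0.297). KIT and DND1 were the 2 of 8 genes with M + E2 wholly above Milk, against 9.69% of all genes. NANOS2 (ENSSSCG00000003096), a translational repressor that works with DND1, had 0 to 6 reads per library. The reads were 1, 6 and 5 in M + E2, 5, 1 (Sow 2) and 2 in Sow, and 0, 1 and 1 in Soy. In the Soy library at 0, the approximate upper limit was 0.394 CPM.

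The median log2 difference of the 8 genes was 0.56 for M + E2 against Milk, 0.32 for M + E2 against Sow, −0.43 for Milk against Sow, −0.31 for M + G against Sow, −0.26 for Soy against Sow and −0.34 for Soy against M + E2. It was 0.09 for M + G against Milk and 0.18 for Soy against Milk. The median over all genes tested lay between −0.03 and 0.03. Single libraries moved these medians. M + E2 against Sow was at 0.03 without Sow 3, Soy against Sow at −0.04 and M + G against Sow at −0.18 without the unnumbered Sow library, M + E2 against Milk at 0.36 without M + E2 3, Soy against M + E2 at −0.22 without the unnumbered Soy library, and M + G against Milk at −0.14 without M + G 1. With the replicate block Soy against Milk was at −0.03. In M + G against Milk the differences of single genes ran from −0.34 (MAEL) to 0.28 (UCHL1).

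**Figure D4:**
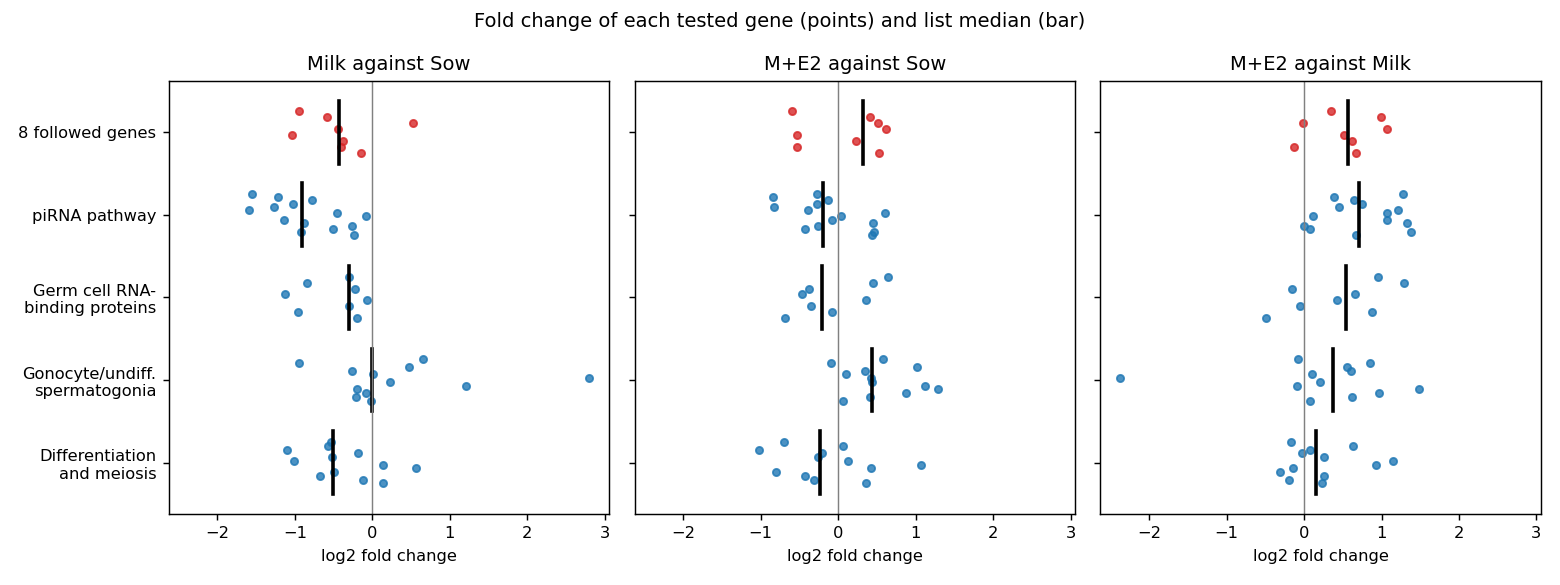
Log2 differences of the tested genes of the germ cell lists in 3 comparisons, 1 panel each. Points are genes and bars are list medians. The piRNA pathway median is −0.91 for Milk against Sow, −0.20 for M + E2 against Sow and 0.71 for M + E2 against Milk.

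Other genes of the same pathways were described as lists. Of 14 piRNA pathway genes, the partners of MAEL and TDRD1, none was called in the main fit. The alternatives called up to 4 in M + G against Sow (all genes up to 10.3%) and up to 3 in M + E2 against Milk (8.04%). All 14 had a log2 difference below 0 for Milk against Sow, with a median of −0.91, and 7 of them had an unadjusted p below 0.05, against 5.99% of all genes in that direction. All 14 were above 0 for M + E2 against Milk, with a median of 0.71, and 5 had an unadjusted p below 0.05, against 7.23%. Over the alternatives the 7 became 2 to 8, being 2 without the unnumbered Sow library and 4 without Milk 1 or Milk 2, and the median was −0.53 without the unnumbered Sow library and −1.27 without Sow 3. With all 3 Sow libraries 1 of 14 was above 0 for Milk against Sow, and when single libraries were left out at least 12 of 14 stayed above 0 for M + E2 against Milk. Their summed level was 85.0 to 124 CPM in Sow, 63.3 to 73.8 in Milk, 64.8 to 80.8 in Soy, 58.4 to 73.4 in M + G and 90.4 to 104 in M + E2. The comparisons of Milk with Sow and of M + E2 with Milk share the Milk libraries. Relative to Sow, 5 of the 14 were above 0 in M + E2 (median −0.20), 1 in M + G (−0.64) and 2 in Soy (−0.44). At an unadjusted p below 0.05, 5 were lower in M + G (all genes 13.7%) and 3 in Soy (7.46%). In M + E2 1 was lower (19.2%) and 1 higher (14.6%), and the median ran from −0.50 to 0.13 over the alternatives. PIWIL2, a piRNA-binding Argonaute protein, was at 12, 13.8 and 14.9 CPM in M + E2 and at 5.16, 5.45 and 8.45 CPM in Milk, a log2 difference of 1.06 (adjusted p = 0.186). PIWIL4, another such protein, had a difference of 0.11 (adjusted p = 0.702). HENMT1, which methylates piRNA ends, was at 2.66, 3.34 and 2.11 CPM in Milk and at 7.25, 9.04 (Sow 2) and 5.50 CPM in Sow, with a log2 difference of −1.28 (adjusted p = 0.36). RNF17, a Tudor protein, had a difference of −0.65 between Soy and Sow (adjusted p = 0.32).

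Of 12 tested genes of gonocytes and undifferentiated spermatogonia, none was called in the main fit. The alternatives called up to 2 in M + E2 against Milk (all genes up to 8.04%) and up to 2 in M + E2 against Sow (18.1%). In M + G against Sow they called up to 1 (10.3%). For M + E2 against Milk 4 were higher and 1 lower at an unadjusted p below 0.05, against 7.23% and 10.5% of all genes, and the median was 0.38 (0.17 to 0.57 over the alternatives). LIN28B, an RNA-binding protein of immature germ cells, had 2.59, 2.29 and 2.55 CPM in M + E2 and 0.443, 1.36 and 0.745 in Milk, a log2 difference of 1.48 (adjusted p = 0.191). CDH1, an adhesion protein also found in epithelia, had 2.31, 10.1 and 4.11 CPM in M + G and 0.738, 0.866 and 1.49 in Milk, a difference of 2.41 (adjusted p = 0.94). The epithelial marker EPCAM was at 2.69, 21.6 and 4.55 CPM in M + G and at 0.248 to 0.590 CPM in Milk, highest in M + G 2 as CDH1 was. All 4 epithelial genes measured had a log2 difference above 0 for M + G against Milk (median 0.70), and their summed level was 94.8 to 351 CPM in M + G and 133 to 197 CPM in Milk. The part of such cells in CDH1 was not tested.

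Of 12 tested genes of differentiation and meiosis, none was called in the main fit. The alternatives called up to 2 in M + E2 against Milk (all genes up to 8.04%) and up to 1 in M + G against Sow (10.3%). The median was −0.51 for Milk against Sow, where 3 were lower at an unadjusted p below 0.05 (all genes 5.99%), and 0.16 for M + E2 against Milk, where 2 were higher (all genes 7.23%). Without the unnumbered Sow library the first median was −0.20, with 0 genes lower, and without M + E2 1 the second was −0.01. STK31, a Tudor kinase of germ cells, was at 14.3, 10.7 and 17.5 CPM in M + E2 and 7.67, 4.83 and 6.46 in Milk (log2 difference 1.14, adjusted p = 0.186). DMRT1, a transcription factor of germ and Sertoli cells, had a difference of 0.63 (adjusted p = 0.207).

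Of 8 further RNA-binding proteins of germ cells, none was called in the main fit. The alternatives called up to 2 in M + G against Sow (all genes up to 10.3%) and up to 1 in M + E2 against Milk (8.04%). For M + E2 against Milk 4 were higher and 1 lower at an unadjusted p below 0.05, against 7.23% and 10.5% of all genes (median 0.54). CPEB1, which controls translation through poly(A) tails, had 14.8, 11.7 and 14.7 CPM in M + E2 and 4.87, 5.45 and 6.21 in Milk, a log2 difference of 1.29 (adjusted p = 0.175). RBM46 had a difference of 0.88 (adjusted p = 0.191). Of the 9 ligands and partners, 1 was called in M + E2 against Sow (GDNF, above), against 5.0% of all genes, and the median was 0.66. In that comparison 4 were higher and 1 lower at an unadjusted p below 0.05, against 14.6% and 19.2% of all genes. Up to 5 were called there under the alternatives, which called up to 18.1% of all genes.

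Markers of further cell types were summed in the same way. Peritubular myoid genes ranged from 284 to 4007 CPM over the 15 libraries, with the highest values in Milk 2 (3238), Soy 3 (4007) and M + G 2 (2376). These 3 libraries also had the highest KIT, GFRA1 and UCHL1 and the lowest Sertoli cell sum of their diets (1640, 1962 and 2141 CPM), and Milk 2 had the lowest Leydig cell sum (10458 CPM) of all libraries. Their part in the levels of the 3 genes was not tested, and without Milk 2 the log2 difference in KIT between M + E2 and Milk was 1.21. Endothelial genes were at 239 to 376 CPM in Sow, 443 to 1023 in Milk, 380 to 1121 in Soy, 558 to 728 in M + E2 and 579 to 693 in M + G. Macrophage genes were at 116 to 219 CPM over the 15 libraries and erythroid genes at 239 to 1481. Of the erythroid genes SLC4A1 rose in M + E2 relative to Sow (adjusted p = 0.0469), with 4 to 48 reads against 1 to 3. M + G had 11 to 24 reads of SLC4A1. In M + E2 against Sow 2 of the 4 erythroid genes had a log2 difference above 0. The erythroid sum was 239 to 596 CPM in M + E2 and 496 to 575 in Sow. STAR, which moves cholesterol into mitochondria in Leydig cells, fell in M + E2 relative to Sow (log2 difference −1.53, adjusted p = 0.0449).

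Among the 28 pairs of the 8 genes, 18 had a positive correlation of log2 CPM over the 15 libraries. The pair DDX4 and MAEL had a Pearson r of 0.811 (permutation p = 0.00025, adjusted p = 0.007 over the 28 pairs) and a Spearman rho of 0.714 (permutation p = 0.00389, adjusted p = 0.109). Without the 2 libraries farthest from the median of DDX4, r was 0.616, without Sow 2 it was 0.758 (permutation, adjusted p = 0.0504), and after removing diet means it was 0.715 (permutation, adjusted p = 0.248). By rho, 0 pairs passed the adjustment. With diet means removed, the pair that passed was MAEL and ZBTB16, with an r of −0.902 (permutation, adjusted p = 0.0115), against −0.587 over the 15 libraries as they stand (permutation, adjusted p = 0.125). KIT and DDX4 had an r of −0.000484, and KIT and ZBTB16 had an r of 0.626 (permutation, adjusted p = 0.125). The libraries share depth and diet, which such values contain.

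**Figure D5:**
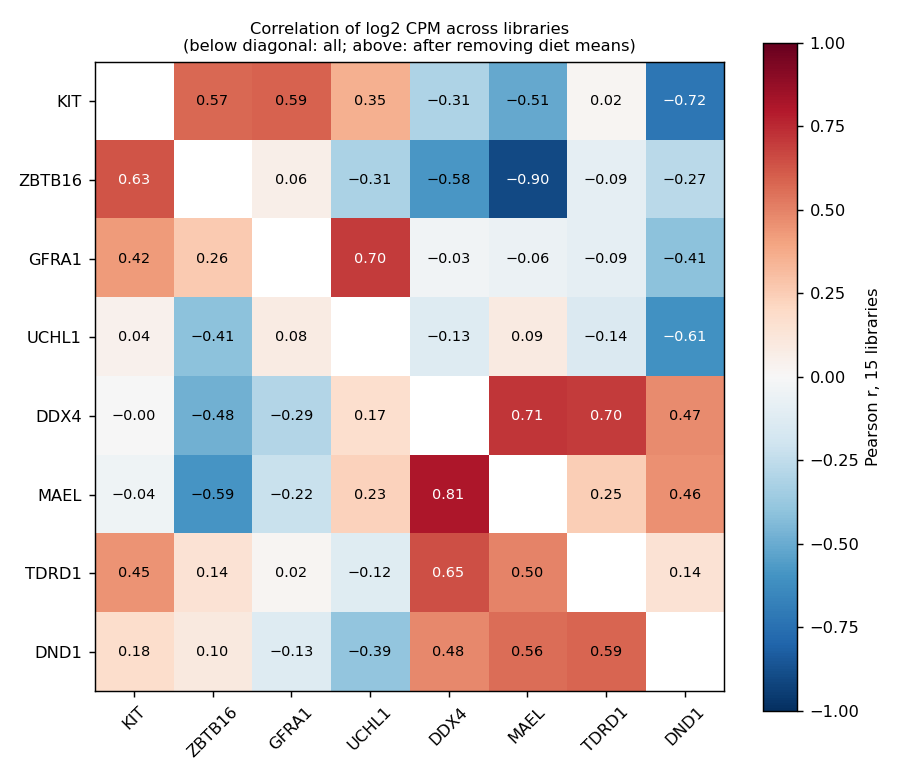
Pearson r of log2 CPM for each pair of the 8 genes. Below the diagonal r is over the 15 libraries, and above it the diet means were removed first; DDX4 and MAEL have r of 0.811 and 0.715.

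The 5 genes whose levels followed KIT most closely over the 15 libraries, of 12434 tested genes with a symbol, were FAM189A2 (r = 0.899), TUT4 (0.846), TMEM132E (0.842), BAIAP2L1 (0.817) and RINL (0.817). The median r of all those genes with KIT was 0.0483. The 5 were picked for the highest r in these same libraries, so their high values follow in part from the choice, and none was tested. After removing diet means the r of the 5 genes lay between 0.701 (TUT4) and 0.902 (TMEM132E). TMEM132E was low, at 0.131 to 1.81 CPM.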

How the data were processed

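The authors removed low-quality bases and reads with more than 2 ambiguous bases, mapped the short single-end reads with the CLC Genomics Workbench, first to a curated porcine gene library and the remainder to the Ensembl pig genome, and deposited read counts per gene and library without normalization. Which mapping round these counts hold was not determined. The labels give the genistein value as a serum level, and the methods as a level in the diet, which was used. Diets were taken from the labels and column names, and 0 columns of sample values were left unused. Positions are those of RefSeq for Sscrofa11.1, matched by symbol.

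The tools were edgeR 4.0.16, DESeq2 1.42.0 and limma 3.58.1, run in R 4.3.3. Genes were kept by filterByExpr at a minimum count of 10, which left 15634 genes over 14 libraries. The 5 diets were fitted together without Sow 2 by edgeR's quasi-likelihood test, and a call required both a 2-fold change and an adjusted p (Benjamini-Hochberg) no higher than 0.05. Levels used the TMM factors of all 15 libraries, and correlations were taken on log2 CPM (prior count 1), with two-sided p-values from 100000 permutations. The scripts were tested on simulated data. The comparisons had no block for the numbers of the libraries. Deviations of same-numbered Milk and M + G libraries had r of 0.231, 0.493 and 0.413, and no other 2 groups had all r above 0.1. The labels do not say that the numbers mark pairs, and whether they do was not tested.

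All 10 listed genes, their ligands and partners (KITLG, GDNF, RET, PIWIL2 and PIWIL4), the genes called in each list and the 2 genes of each list with the smallest p over the 5 diets could be named, with the 5 genes most like KIT. The members and lists were chosen with earlier results of these data known. Alternatives were other scalings, filters, tests and sample sets, and leaving out each library in turn.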

Additional observations from a re-analysis of the deposited data

How the results depend on the processing

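The number of the 8 genes called for M + E2 against Milk was 0, and 1 with edgeR's exact test and with DESeq2's Wald test (KIT in both). With single libraries left out it ranged from 0 to 2, the 2 being KIT and ZBTB16 without Milk 3, where 1256 genes (8.04%) were called in all. For M + G against Sow it was 0, and 1 (MAEL) with all 3 Sow libraries, in the fit of the groups compared and with the exact test, where 10.3%, 5.38% and 6.48% of all genes were called. The number of correlated pairs was 1, and 0 without Sow 2 and 2 with CPM by total count alone (DDX4 with MAEL and KIT with ZBTB16). With values centred on the diet means it was 1, but a different pair (MAEL with ZBTB16, negative). In 42 of 64 pairs of gene and comparison the sign did not change under any alternative run, and of the 11 with an unadjusted p below 0.05 all 11 kept it. The 11 were picked by p in libraries that the alternatives largely share, so a change of sign was unlikely from the start. With the replicate block, 0 of 8 genes were called in each of the 4 comparisons it could be fitted to, and KIT for M + E2 against Milk was at 1.08 (adjusted p = 0.190). No paired analysis was possible for the comparisons with Sow because Sow shares fewer than 2 numbers with the others once Sow 2 is left out. The counts of list genes above 0 under the alternatives were added after seeing the data. Groups of 2 or 3 piglets limit the precision.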
